A study of Mus musculus with 4 samples.

Results

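The cornified envelope is the protein shell that replaces the plasma membrane of keratinocytes as they die at the skin surface. Its precursors include the small proline-rich proteins (Sprr), the late cornified envelope proteins (Lce), loricrin (Lor), involucrin (Ivl), and the large S100-fused proteins filaggrin (Flg), filaggrin-2 (Flg2), hornerin (Hrnr) and repetin (Rptn). Transglutaminases cross-link them, and their genes lie together in the epidermal differentiation complex. Sprr and Lce3 genes are known to be induced in wounded, irritated and psoriatic epidermis, whereas loricrin and filaggrin belong to normal terminal differentiation. They are made mainly by the keratinocytes of stratified epithelia. Here the set holds every gene named Sprr or Lce followed by a digit, plus Lor, Flg, Flg2, Ivl, Hrnr and Rptn, which gave 44 of the 55335 annotated genes. They were chosen by name and not by their values.

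The 4 libraries came from dorsal skin of mice aged 8 to 12 weeks after imiquimod cream (5%) had been applied for 5 days. Imiquimod activates Toll-like receptor 7 and gives mouse skin a psoriasis-like inflammation. The daily amount was 15 or 62.5 mg, and the sources used here do not say which mice received which. Both control libraries were Mettl3fl/fl, with floxed alleles of the RNA methyltransferase Mettl3 and no Cre, and both knockout libraries were Mettl3fl/fl;Cd4-Cre. All 4 thus carried the floxed alleles and the imiquimod treatment. The Cd4 promoter that drives Cre is active in developing T cells, so the deletion is aimed at T cells and not at keratinocytes. According to the labels these are skin CD4+ T cells, made from the dermal fraction of dispase-treated skin and stained for CD45 and CD4, with no gate described. How many mice gave each library is not stated, so the spread between libraries may be partly technical.

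Totals were between 3614418 and 4537006 counted fragments. Genes with fragments numbered 19378 and 11424 in controls 1 and 2, and 20100 and 16273 in knockouts 1 and 2. Zeros in control 2 and knockout 2 may therefore be less firm than their totals alone would make them. T cell markers were present in every library, summing to 1158 and 336.6 CPM in controls 1 and 2 and to 333.7 and 176.8 CPM in knockouts 1 and 2. CPM, the unit of all levels below, is the fragment count per 1000000 fragments of the library total as scaled by the trimmed mean of M values (TMM). Of the 15 markers, 4 had no fragment in control 2, Cd4 among them, and 3 had none in knockout 2. Basal keratinocyte markers (14 genes, such as Krt5 and Krt14) summed to 1638 and 21695 CPM in the controls, against 2510 and 1086 CPM in the knockouts, so control 2 stood apart from the other 3 libraries in keratinocyte RNA. Macrophage and monocyte markers moved the other way from the members described below. They summed to 21139 and 10336 CPM in the controls, against 33301 and 30190 CPM in the knockouts, and 10 of the 13 tested had both knockouts above both controls, as did 19.5% of all genes. None of them was called by edgeR or DESeq2, and their part in the members' levels was not tested. Mettl3 itself gave 195 and 49 fragments in the controls, against 121 and 158 in the knockouts. The sources used here do not say which part of the gene is deleted, so these fragments do not check the genotypes.

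All 44 members lie on chromosome 3 of GRCm38, from Lor at 92080271 to the end of Rptn at 93399442. Most Sprr and Lce genes have a short first exon and a second exon with the whole coding part. The following coding sequences are shown because they carry the feature that names the Sprr family, and because Sprr2k had no fragment in either knockout while Sprr2d had fragments in all 4 libraries. They are from GENCODE M21 transcripts, 5′ to 3′ on the plus strand, at chr3:92340254-92340511 (Sprr2d) and chr3:92433345-92433551 (Sprr2k). Capitals mark the in-frame CCN codons, which encode proline.
Sprr2d: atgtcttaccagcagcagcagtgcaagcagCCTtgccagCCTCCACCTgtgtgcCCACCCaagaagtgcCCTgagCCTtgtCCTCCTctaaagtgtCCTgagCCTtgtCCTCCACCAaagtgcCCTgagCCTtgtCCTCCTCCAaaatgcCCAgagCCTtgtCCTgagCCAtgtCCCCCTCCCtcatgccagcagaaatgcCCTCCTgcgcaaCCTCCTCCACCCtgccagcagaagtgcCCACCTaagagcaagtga
Sprr2k: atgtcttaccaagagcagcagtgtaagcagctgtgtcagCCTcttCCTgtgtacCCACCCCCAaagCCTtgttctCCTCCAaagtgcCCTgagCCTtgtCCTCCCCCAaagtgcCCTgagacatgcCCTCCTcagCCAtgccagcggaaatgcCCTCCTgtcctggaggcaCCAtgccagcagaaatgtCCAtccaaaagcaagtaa
CCN codons made up 41.2% of the codons of Sprr2d, 30.9% of Sprr2k and 10.2% of Lce3d, against a median of 5.25% over 22527 coding genes. The share was 31.9% in Sprr1a and 30.7% in Sprr1b. Cysteine codons (TGT or TGC) made up 16.3% of the codons of Lce3d, against a median of 2.14%. They were about as frequent in Sprr2d (18.8%) and Sprr2k (16.2%). Lor is made largely of glycine codons (GGN, 55.3%, against a median of 6.03%).

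Near-identical copies limit what the counts can show, since fragments with several mapping places were left out of the counts. Of all 50-base windows in the transcripts of Sprr2a1 and Sprr2a2, 96.3% and 96.5% also occur in another gene, and 61.1% of those of Sprr2a3 do. These 3 genes had no fragment in any library. In contrast every window of Sprr1a and Sprr2k, and 95.7% of those of Sprr2d, occur in no other gene. The Lce3 genes lie between, with 49.3% of the windows of Lce3d, 48.0% of Lce3f and 35.7% of Lce3c shared with other Lce3 genes. Counted levels of Lce3 genes may therefore be too low, and their zeros are less firm.

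Fragments were counted for 19 of the 44 members, and 99.2% of the 20450 member fragments lay in the longest exon of the gene. No exon of any member belongs to a retained-intron transcript alone. The 25 members without a fragment were Sprr2a1, Sprr2a2, Sprr2a3, Sprr2c-ps, Sprr3, Lce6a, 12 of the 14 Lce1 genes (all but Lce1a1 and Lce1d), Lce3a, Lce3b and Lce3e, and all 4 S100-fused genes, Flg, Flg2, Hrnr and Rptn. With no fragment in a library, a level below 0.655 to 0.792 CPM cannot be seen (3 fragments in that library, counting error only). For Sprr3 every 50-base window is found in no other gene, and for Rptn 97.2% are found once. A fragment over bases that lie in several annotated exon entries can go uncounted, which makes some zeros less firm. Of the 11187 exon bases of Hrnr 531 lie in a single entry, of the 795 of Lce6a 310 do, of the 18829 of Flg 11615 do, and of the 20803 of Flg2 13792 do.

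**Figure D1:**
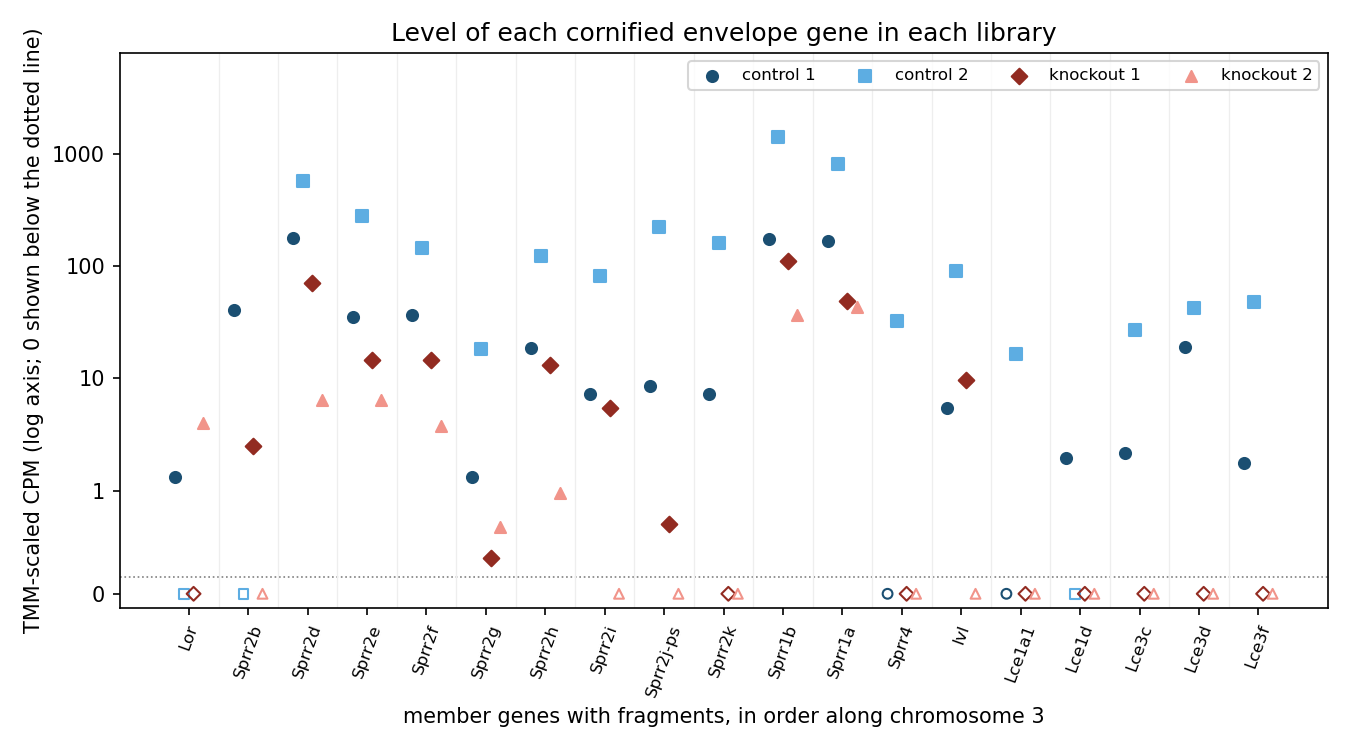
Level of each of the 19 members with fragments in the 4 libraries, in order along chromosome 3. The vertical axis is TMM-scaled CPM on a log axis, filled symbols are libraries with fragments, and open symbols below the dotted line are libraries with 0. Control 2 (light blue squares) is the highest library for 16 of the 19 genes, and the Lce genes at the right have open symbols in both knockouts.

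Summed over the members, the level was 709.0 and 4117 CPM in controls 1 and 2, and 292.3 and 102.8 CPM in knockouts 1 and 2. Both knockouts thus lay below both controls. The controls differed from each other more than control 1 differed from knockout 1. The log2 ratio of the knockout mean to the control mean was -3.61, and it was -1.85 without control 2. With 2 libraries in each genotype an exact two-sided permutation test cannot go below p = 0.333, so no test of this sum was made. In bulk RNA, fewer keratinocytes and less of these transcripts per keratinocyte cannot be told apart.

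Sprr1b and Sprr1a, precursors that bridge other proteins in the envelope, held the most fragments of any members. Sprr1b (chromosome 3, 92436809 to 92438789, minus strand) was at 174.0 and 1422 CPM in controls 1 and 2, and at 111.6 and 37.1 CPM in knockouts 1 and 2. Sprr1a (92483952 to 92485895, minus strand) was at 167.9 and 818.8 CPM in the controls, against 49.2 and 43.7 CPM in the knockouts, always in the order 1, 2. For both genes control 2 was far above the rest and the groups did not overlap. The log2 fold change of knockout against control was -3.42 (SE 1.21) for Sprr1b and -3.41 (SE 0.94) for Sprr1a, and neither passed (adjusted p = 0.9997 for both over 12434 genes, edgeR's quasi-likelihood test with Benjamini-Hochberg adjustment). Without control 2 these were -1.23 and -1.86.

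The Sprr2 cluster followed the same order of libraries for most of its genes. Sprr2d (92339140 to 92340873, plus strand), the member of the cluster with most fragments, was at 179.9 and 580.5 CPM in the controls, against 70.6 and 6.38 CPM in the knockouts. Its fitted log2 change was -3.30, SE 1.33 (edgeR, adjusted p = 0.9997), and it was -2.23 without control 2 and -5.81 without knockout 1. Sprr2e (92352143 to 92353449) was at 35.6 and 282.4 CPM in the controls, against 14.7 and 6.38 CPM in the knockouts. Sprr2d and Sprr2e were each lowest in knockout 2 and highest in control 2, with no overlap between the genotypes. Sprr2f (92365187 to 92366442) was at 36.9 and 147.0 CPM in the controls, against 14.5 and 3.78 CPM in the knockouts. Sprr2h (92385685 to 92387324) was at 18.6 and 122.7 CPM in the controls, against 13.2 and 0.946 CPM in the knockouts. Sprr2i (92407991 to 92409271) was at 7.20 and 82.1 CPM in the controls, against 5.49 and 0 CPM in the knockouts. For Sprr2h and Sprr2i control 1 and knockout 1 lay close together beside the spread of the controls, an SD of 73.7 and 53.0 CPM (n = 2).

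At the end of the cluster, fragments of Sprr2j-ps and Sprr2k were nearly limited to the controls. Sprr2k (ENSMUSG00000054215.2, 92432582 to 92433925, plus strand) gave 33 fragments in control 1 and 615 in control 2 but 0 in both knockouts, a level at least 116.3-fold lower in knockouts against a floor of 3 fragments per library, and at least 9.88-fold lower against control 1 alone. Sprr2j-ps (92418082 to 92419396) gave 39 and 843 fragments in the controls, against 2 and 0 in the knockouts. Its symbol names a pseudogene, although GENCODE M21 gives it a coding part of 109 codons. For Sprr2j-ps the ratio of control to knockout over pooled fragments was 434.0 with a counting interval of 119.8 to 3589. With control 1 alone it was 35.1 (9.08 to 299.7). Sprr2j-ps and Sprr2k are the Sprr2 genes with fragments for which knockout 1 also had 2 fragments or fewer, beside Sprr2g (92373915 to 92375229). Sprr2g had 6 and 70 fragments in the controls, against 1 and 2 in the knockouts (pooled ratio 24.9, interval 8.21 to 123.6). With control 1 alone the ratio for Sprr2g was 3.596 (0.768 to 22.2), an interval that includes equal levels. All but 1 of the 651 exon bases of Sprr2g lie in more than 1 annotated entry, so its count may be incomplete. In control 1, whose basal keratinocyte markers lay between those of the knockouts, Sprr2j-ps and Sprr2k were at 8.51 and 7.20 CPM.

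Sprr2b was the exception in the cluster. It (92316620 to 92318085) gave 185 fragments in control 1 and 10 in knockout 1, but 0 in control 2 and in knockout 2. Control 2 was the highest library for every other Sprr gene with fragments, and here it had none. Of the 50-base windows of Sprr2b, 14.1% also occur in Sprr2a genes. The groups overlapped, and the SE of its log2 fold change (-3.99) was 3.26 (edgeR, adjusted p = 0.9997). Sprr4 (92500263 to 92500493) had 124 fragments in control 2 and none in the other 3 libraries.

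Involucrin and loricrin, the classical precursors, did not follow the genotype. Ivl, a glutamine-rich early scaffold of the envelope (92570902 to 92573735, minus strand), was at 5.46 and 90.8 CPM in the controls, against 9.73 and 0 CPM in the knockouts. Knockout 1 lay above control 1, so the groups overlapped. The fitted log2 change was -3.30, SE 2.52 (edgeR, adjusted p = 0.9997), and -0.17 without control 2. Lor, the main protein of the finished envelope (92080271 to 92083142), had 6 fragments in control 1, 17 in knockout 2 and none in control 2 and knockout 1. Its counts, like those of Lce1d, are under the 30 fragments otherwise required for printing values, and were added after they had been seen. Lor was the one member whose highest level was in a knockout, and it had no fragment in the library with the most keratinocyte RNA.

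Fragments of Lce genes, whose products are added late to the envelope, were found in the controls and in neither knockout. All fragments of the family came from Lce1a1, Lce1d, Lce3c, Lce3d and Lce3f, 114 in control 1 and 508 in control 2, and both knockouts had 0. Lce3d (ENSMUSG00000043472.10, 92957390 to 92958505, plus strand) gave 87 fragments in control 1 and 160 in control 2, and was at least 42.0-fold lower in knockouts against 3 fragments per library, or 26.1-fold against control 1 alone. Lce3f (92992226 to 92993426) gave 8 fragments in control 1 and 183 in control 2, and Lce3c (92944486 to 92945733) had 10 and 103. Lce1a1 (92646535 to 92648307) had 62 fragments in control 2 and none elsewhere, and Lce1d (92685499 to 92687210) had 9 in control 1 and none elsewhere. Lce3d was at 19.0 and 42.2 CPM in the controls, closer together than Lce3c (2.18 and 27.2 CPM) and Lce3f (1.75 and 48.3 CPM).

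The summed share of Lce among all member fragments was similar in controls 1 and 2, but different genes made it up. Lce3d gave 87 of 114 Lce fragments in control 1 and 160 of 508 in control 2. Relative to basal markers the family was at 1.52% and 0.618% in the controls. The share among member fragments was 3.51% in control 1 (exact binomial 95% interval 2.90 to 4.201) and 3.26% in control 2 (2.98 to 3.55). In knockout 1, 0 of 1171 member fragments were Lce, which allows a share of up to 0.256%, and in knockout 2, 0 of 435, which allows up to 0.690% (3 fragments of the total). The exact binomial upper bounds, made as for the controls, were 0.315% and 0.844%. All of these lie under the intervals of both controls, which cover counting error and not the spread between libraries. The family was at 79.5 ± 77.2 CPM in controls (SD, n = 2), at least 109.0-fold lower in knockouts against the same floor, and at least 34.1-fold lower against control 1 alone.

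The rest of the make-up was set apart mainly in knockout 2. Sprr1 genes held 48.2% and 54.4% of member fragments in the controls, against 55.0% and 78.6% in the knockouts, so that knockout 1 was barely above control 2. Sprr2 genes held 47.3% and 39.3% in the controls, against 41.7% and 17.5% in the knockouts, which overlapped. Knockout 2 had Sprr1a alone at 42.5% (exact binomial 95% interval 37.8 to 47.3) against 16.8% to 23.7% in the other 3. 

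**Figure D2:**
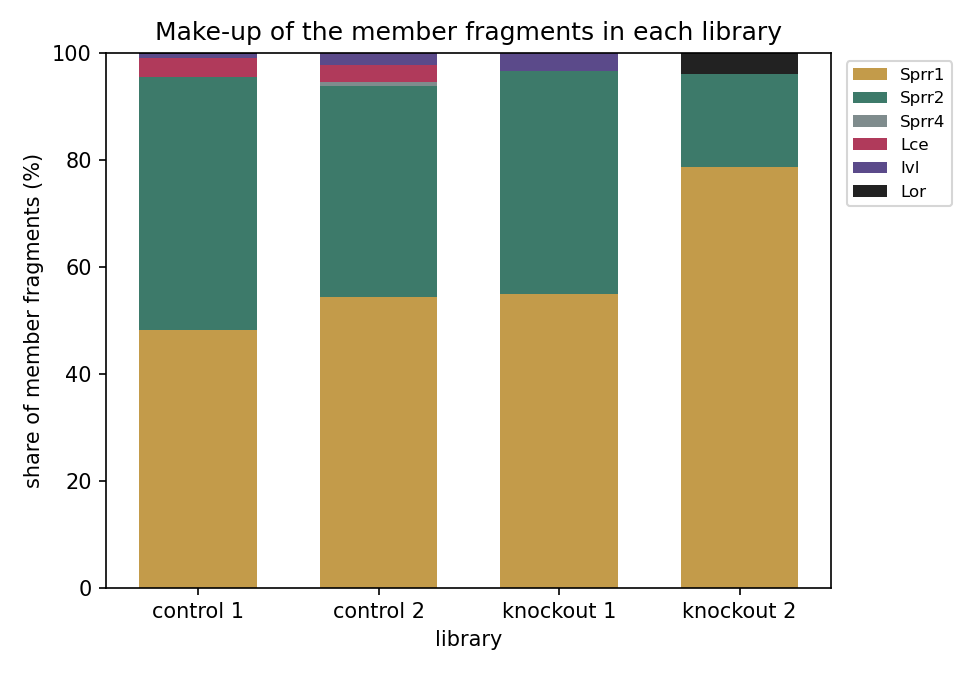
Share of the member fragments (vertical axis, %) that came from each family in each library (horizontal axis), as stacked bars. The Lce band is seen in both controls at 3.51% and 3.26% and in neither knockout, and knockout 2 has the largest Sprr1 band, 78.6%.

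Compared per length of exon, in CPM per kilobase, the order of levels was led by the Sprr1 genes and Sprr2d. In control 2 Sprr1b was at 1714, Sprr1a at 1016 and Sprr2d at 852.4 CPM per kilobase, followed by Sprr2e at 436.5, Sprr2j-ps at 328.2, Sprr2k at 254.8 and Sprr2f at 241.4. In control 1 the same 3 genes led, with Sprr2d first at 264.1, Sprr1b at 209.6 and Sprr1a at 208.3 CPM per kilobase, and Sprr2k was at 11.3. In knockout 1 Sprr1b was at 134.4, Sprr2d at 103.7 and Sprr1a at 61.0, and in knockout 2 Sprr1a was at 54.3, Sprr1b at 44.7 and Sprr2d at 9.37. Counting by exon entry makes such a comparison between genes rough.

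**Figure D3:**
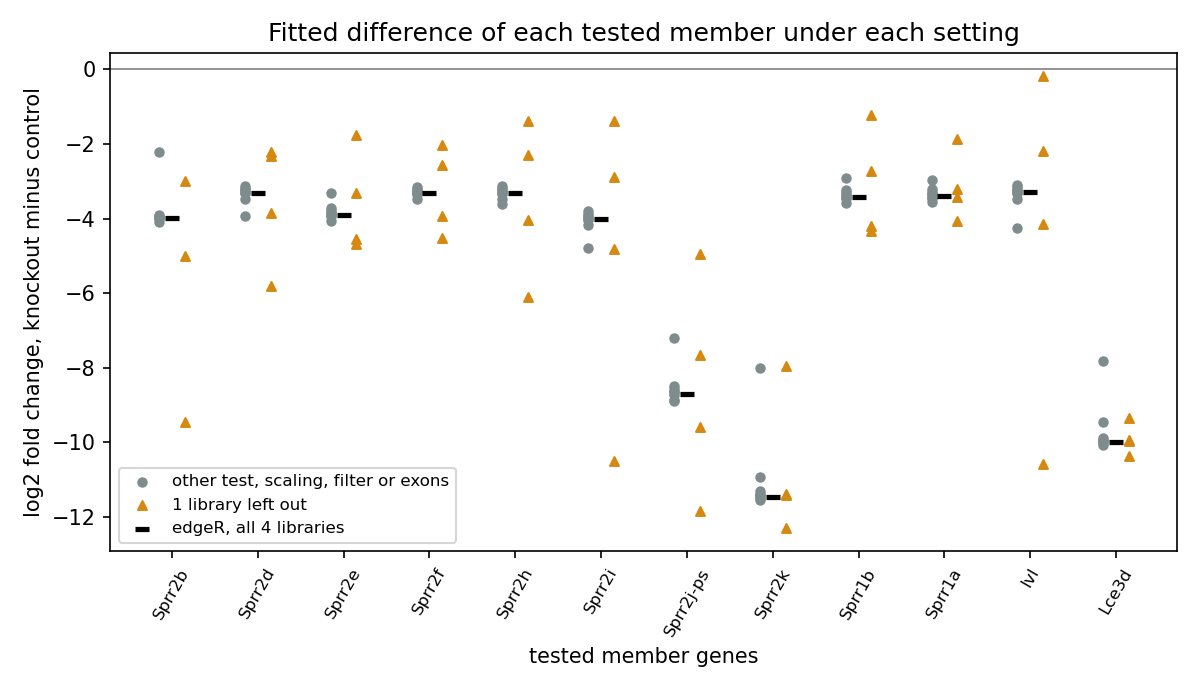
Fitted log2 fold change of knockout against control (vertical axis) for the 12 tested members (horizontal axis). Black bars are edgeR with all 4 libraries, grey points the other tests, scalings, filters and exon sets, and orange triangles the fits with 1 library left out. Every value is below 0, and the values with 1 library left out spread widely, for Ivl from -10.59 to -0.17.

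Across the whole table the test called no gene, so no member passed it. Of the 12434 genes tested by edgeR, 0% were called at an adjusted p under 0.05 (Benjamini-Hochberg), and 187 (1.5%) had an unadjusted p under 0.05. A total of 12 of the 19 members with fragments passed the filter for low counts. A member could pass through the controls alone, which then also sets its direction, so counts over these 12 are a description. All 12 had a negative log2 fold change, with a median of -3.67 against 0.20 over all genes tested, and 7 had an unadjusted p under 0.05, as did 0.627% of all genes in the same direction. Of the 12, 10 had both knockouts below both controls, which 11.2% of all tested genes had. Without control 2 the median was -1.86, and 11 of the 13 members then tested had both knockouts below control 1, as did 32.9% of all 15044 genes in that fit. Over all 19 members with fragments, 13 had both knockouts below both controls, 6 overlapped and none was above.

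Other tools called a few members. DESeq2 called 17 genes, 13 of them lower in the knockouts (0.105% of those tested), and these included Sprr2k (adjusted p = 0.013), Sprr2j-ps (0.018) and Lce3d (0.027). In edgeR without a filter for low counts, 19 genes were called lower (0.0771%), with Sprr2k (adjusted p = 0.0072) and Sprr2j-ps (0.0096) among them. Limma-voom called none. The members called by either tool have 2 fragments or fewer over both knockouts. Their adjusted p lay between 0.0072 and 1.00 over the 12 alternatives.

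Other genes of the envelope and its differentiation programme were read beside the members, and edgeR and DESeq2 called none of them. Of 22 cross-linking and scaffold genes 13 were tested, 11 of them negative, and their median log2 change was -2.55. Both knockouts lay below both controls for 5 of the 13 and above both for 1. Over all tested genes these shares were 11.2% and 19.5%. In this list Ppl (periplakin, a plakin scaffold) was at 24.7 and 108.2 CPM in the controls, against 36.7 and 57.2 CPM in the knockouts, which overlapped. Cdsn (corneodesmosin, of the junctions between corneocytes) was at 24.2 and 50.9 CPM in the controls, against 0 and 5.20 CPM in the knockouts, with both knockouts below both controls. Of 18 filaggrin-processing and desquamation proteases 9 were tested, all negative, with a median of -4.198. Of these 9, 4 had both knockouts below both controls, as did 11.2% of all tested genes. Klk7, a kallikrein that sheds corneocytes, was at 22.05 and 871.9 CPM in the controls, against 26.2 and 7.33 CPM in the knockouts, so control 1 lay between the knockouts. Asprv1, which processes filaggrin, was at 60.5 and 829.6 CPM in the controls, against 71.6 and 64.3 CPM in the knockouts, and control 1 was the lowest library. The kallikrein Klk10 was at 52.2 and 300.4 CPM in the controls, against 27.0 and 0 CPM in the knockouts. Blmh, a protease that degrades filaggrin further, was at 86.0 and 215.4 CPM in the controls, against 79.9 and 62.2 CPM in the knockouts. For Klk10 and Blmh each knockout was below each control.

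The more abundant keratins were also highest in control 2. The suprabasal keratin Krt1 was at 94.7 and 2290.1 CPM in the controls, against 64.1 and 54.6 CPM in the knockouts. Its partner Krt10 was at 27.5 and 638.5 CPM in the controls, against 15.7 and 17.3 CPM in the knockouts. For both, each knockout was below each control. Krt16, a wound keratin of hyperproliferative epidermis, was at 235.3 and 2632 CPM in the controls, against 310.5 and 217.7 CPM in the knockouts, which overlapped. Krt17, also a wound keratin, was at 340.5 and 1480.04 CPM in the controls, against 298.5 and 96.2 CPM in the knockouts. Krt80 and Krt23, the other suprabasal keratins tested, were highest in control 1 and at 10.04 CPM or less in every library. The list medians were -2.44 for 4 suprabasal and -2.32 for 4 wound keratins tested. In each of these lists 2 genes had both knockouts below both controls, which 11.2% of all tested genes had. Of 14 differentiation transcription factors 10 were tested and 9 were negative, with both knockouts below both controls for 2 and above both for 1. Klf4, which drives late epidermal differentiation and is also expressed in myeloid cells, was at 1129 and 637.5 CPM in the controls, against 707.8 and 983.7 CPM in the knockouts. Of 18 barrier lipid enzymes 10 were tested, with 5 in each direction. Both knockouts lay below both controls for 2 of them and above both for 3 (19.5% of all tested genes lay above).

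**Figure D4:**
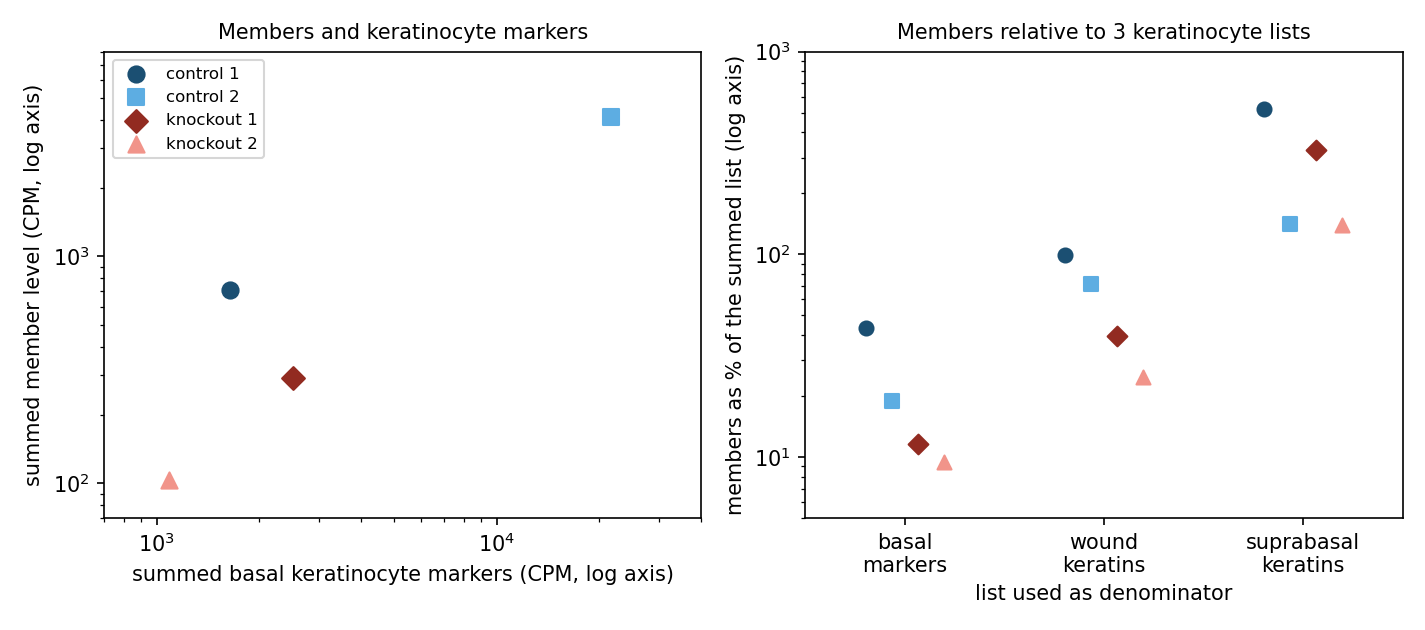
Left, summed level of the members (vertical log axis, CPM) against the summed basal keratinocyte markers (horizontal log axis, CPM), 1 point per library. Right, the members' sum as a percentage (log axis) of 3 keratinocyte lists. Control 1 lies above both knockouts at a similar marker level, and both controls lie above both knockouts relative to basal markers and wound keratins but not relative to suprabasal keratins.

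Since the members and the keratinocyte markers both peaked in control 2, the members' sum was also set against the markers within each library. Of the 14 basal markers 13 had fragments and 11 were tested, 9 of them with a negative log2 change (median -2.22) and 1 with both knockouts below both controls. The part of keratinocyte content in the members' levels was not tested, and this division does not test it. The members' sum was 43.3% and 19.0% of the summed basal keratinocyte markers in the controls, against 11.6% and 9.47% in the knockouts. Both knockouts thus stayed below both controls, with a log2 ratio of the means of -1.56, or -0.85 without control 1. Control 1 had less basal marker RNA than knockout 1 (1638 against 2510 CPM) and more member RNA (709.0 against 292.3 CPM). Relative to wound keratins, a denominator chosen after the values were seen, the members were at 99.7% and 71.7% in the controls, against 39.8% and 25.0% in the knockouts. Relative to suprabasal keratins, also chosen afterwards, they were at 521.3% and 140.4%, against 325.3% and 140.3%, and the genotypes overlapped. Which denominator follows the cells that make these transcripts was not tested.

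Member by member the same division left fewer genes apart. Of the 12 tested members, 8 had both knockouts below both controls relative to basal markers, which 1.57% of all tested genes had, and Sprr2b, Sprr2d, Sprr1a and Ivl overlapped. The marker sum was 21695 CPM in control 2, against 1086 to 2510 CPM in the other libraries. Division by it lowers control 2 for genes that do not rise with keratinocyte RNA. The 1.57% is therefore no measure of how often keratinocyte genes are set apart, which was not counted. Sprr2d was at 10.98% and 2.68% of the basal marker sum in the controls, against 2.81% and 0.588% in the knockouts. Sprr1b was at 10.6% and 6.56% in the controls, against 4.44% and 3.42% in the knockouts. Ivl was at 0.333% and 0.419% in the controls, against 0.388% and 0% in the knockouts, so 3 of the 4 libraries held it in nearly the same proportion. The Lce family was at 1.52% and 0.618% in the controls and 0 in the knockouts.

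The promoters of the members divide along the same families. The 250 bases before the RefSeq start (GRCm38.p6) are shown for the 3 members with the most fragments and for Sprr2k and Lce3d, the tested members without a fragment in either knockout, because most Sprr promoters hold an element that was found in no Lce promoter. Windows are chr3:92338890-92339139 (Sprr2d, plus strand), chr3:92432332-92432581 (Sprr2k, plus strand), chr3:92438780-92439029 (Sprr1b, minus strand), chr3:92485882-92486131 (Sprr1a, minus strand) and chr3:92957140-92957389 (Lce3d, plus strand). All are written 5′ to 3′ on the gene's strand. Capitals mark matches to TATAAA, the TATA box, and to TGANTCA, the core bound by AP-1 (Jun and Fos) factors.
Sprr2d: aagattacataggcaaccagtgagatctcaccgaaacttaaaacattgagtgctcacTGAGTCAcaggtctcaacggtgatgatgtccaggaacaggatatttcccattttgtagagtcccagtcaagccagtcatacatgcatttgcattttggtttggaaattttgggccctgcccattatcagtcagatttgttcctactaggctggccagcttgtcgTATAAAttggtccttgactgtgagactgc
Sprr2k: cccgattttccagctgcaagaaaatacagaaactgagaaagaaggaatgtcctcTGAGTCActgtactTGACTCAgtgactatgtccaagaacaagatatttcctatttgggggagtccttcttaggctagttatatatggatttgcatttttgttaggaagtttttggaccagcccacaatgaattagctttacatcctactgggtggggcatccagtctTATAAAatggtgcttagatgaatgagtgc
Sprr1b: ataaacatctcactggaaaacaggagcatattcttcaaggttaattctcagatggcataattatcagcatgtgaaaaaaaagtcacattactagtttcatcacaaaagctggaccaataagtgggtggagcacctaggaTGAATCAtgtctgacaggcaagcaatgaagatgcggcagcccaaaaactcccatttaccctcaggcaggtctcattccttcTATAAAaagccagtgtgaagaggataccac
Sprr1a: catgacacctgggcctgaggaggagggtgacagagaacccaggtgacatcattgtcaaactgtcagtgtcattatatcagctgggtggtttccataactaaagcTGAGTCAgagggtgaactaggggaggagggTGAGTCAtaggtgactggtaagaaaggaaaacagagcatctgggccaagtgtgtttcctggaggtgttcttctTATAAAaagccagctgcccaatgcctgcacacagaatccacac
Lce3d: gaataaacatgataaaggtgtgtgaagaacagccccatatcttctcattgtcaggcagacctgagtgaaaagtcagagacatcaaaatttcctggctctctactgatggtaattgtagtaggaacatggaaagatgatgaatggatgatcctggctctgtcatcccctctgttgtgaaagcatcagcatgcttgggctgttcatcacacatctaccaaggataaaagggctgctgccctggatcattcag
Promoters were found for 40 of the 44 members, all but Sprr2c-ps, Sprr2g, Sprr2j-ps and Lce1f. Searched on both strands, TGANTCA was present in 9 of 14 Sprr promoters and 0 of 20 Lce promoters, against 6.75% of 32851 promoters. TATAAA was present in 10 of 14 and 4 of 20, against 12.4%. Among the Lce matches, those of Lce6a and Lce3e were on the other strand, at positions -218 and -243 from the start. Only exact matches were counted, and the Lce3d window reads ataaaa near its end. The counts therefore do not show that Lce promoters lack a TATA-type box. In the 7 Sprr2 promoters with a match, a TGANTCA began between 193 and 198 bases before the start, and Sprr2k had another at 182 bases. In Sprr1b it began 111 bases, and in Sprr1a and Ivl 116 bases, before the start. Among members with fragments 11 of 17 promoters held TGANTCA, and among those without 3 of 23 (Flg, Flg2 and Rptn). The third motif searched, CACCC, the core of sites for Klf factors, was in 16 of 40 member promoters against 52.0% of all. The promoter of Lce3d, seen in controls only, held no exact match to either capitalised motif, while that of Sprr2k, also seen in controls only, held both. These letters describe the windows only, and binding was not measured.

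**Figure D5:**
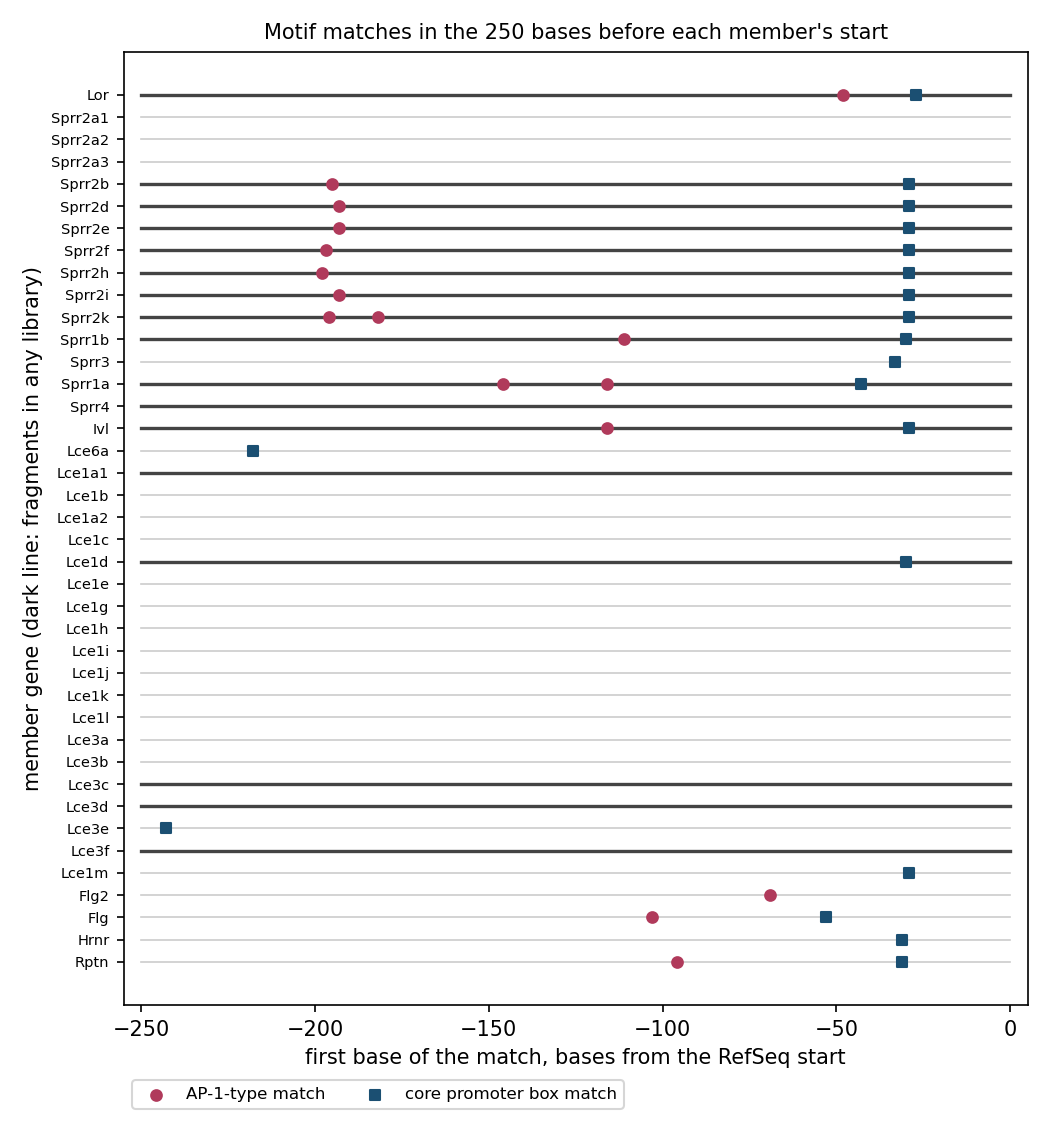
Matches to TGANTCA (AP-1-type, circles) and TATAAA (core promoter box, squares) on either strand in the 250 bases before the start of each of 40 members; the horizontal axis is the first base of the match in bases from the start. Dark lines are members with fragments. Circles align in the Sprr2 genes between 193 and 198 bases before the start, and the Lce genes have none.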

How the data were processed

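Bulk SMART-type RNA-seq libraries, 2 per genotype, were used as the authors deposited them: raw fragment counts per annotated exon entry, made with featureCounts 2.0.1 from paired reads without strand on GENCODE M23, per the file headers. Fragments overlapping several entries equally, or mapping to several places, were not counted. The submitters' processing notes name Trim Galore 0.6.7 and STAR 2.7.9a. Exon counts were summed per gene, and symbols came from a GENCODE M21 table (55154 of 55335 genes matched). Genotypes were compared with edgeR 4.0.16 (filterByExpr with a minimum count of 10, TMM factors, quasi-likelihood test, Benjamini-Hochberg adjustment over 12434 genes) in R 4.3.3. Alternatives were DESeq2 1.42.0, limma 3.58.1 (voom), other scalings and filters, leaving out retained-intron exons, and leaving out each library. The fit was also run on simulated counts, with the outcome not given here. The edgeR SE is the absolute log2 fold change divided by the square root of F. Replicates carry no numbers in the labels and are numbered in accession order. Every member with a fragment is named, and those with at least 30 fragments in a library get values, as do up to 4 genes of highest mean level in each pathway list. The members and lists were chosen with earlier results of these data known. Totals of 3614418 to 4537006 fragments do not set the precision alone, since fewer genes had fragments in control 2 and knockout 2. Intervals and floors cover counting error only, since no molecular identifiers are described. Sequences and windows came from GENCODE M21 transcripts and RefSeq promoters, both on GRCm38.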

Additional observations from a re-analysis of the deposited data

How the results depend on the processing

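No paired analysis was possible because the labels number no replicates. The number of genes called was 0 with edgeR, 17 with DESeq2 and 27 without the low-count filter, and 0 to 4 with 1 library left out (2 without knockout 1 and 4 without knockout 2). Of the members, 3 were called by DESeq2 and 2 without the filter (the cause was not tested), and 0 to 0 with 1 library left out. The members' median log2 fold change was -3.67, -3.98 to -3.54 under the 8 other tests, scalings, filters and exon sets, and -8.46 (without knockout 1) to -1.86 (without control 2) with 1 library left out. Those fits test more members, and the lone library is assumed to vary like the other group. The number with both knockouts below both controls was 10 of 12, and 10 to 13 in the other fits, which tested 12 to 19 members. With 1 library left out it was 11 to 16, of 13 to 18 members tested. That order is easier to meet with fewer libraries. Without control 2, 32.9% of all genes met it, against 11.2% with all 4 libraries. The log2 ratio of the summed level was -3.61, with a range of -4.47 (without knockout 1) to -1.85 (without control 2). Relative to basal markers it was -1.56, with a range of -2.04 (without control 2) to -0.85 (without control 1), and relative to suprabasal keratins, chosen after seeing the data, -0.51. The 12 tested members had negative fold changes in every alternative that tested them (all 12 for 11 of them, and 11 for Sprr2b, which was not tested without control 1), the nearest to 0 being Ivl without control 2 (-0.17).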

Other observations

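The other genes lying between the members on chromosome 3 mostly had no fragment, with 28 of 38 at 0 in every library. Prr9, a proline-rich gene between Lor and Sprr2a1, had the most, with 0 and 1135 fragments in controls 1 and 2, against 7 and 10 in knockouts 1 and 2. It had none in control 1, which had fragments of 17 members. Crct1, between Lce3f and Lce1m, had 14 and 72 fragments in the controls, against 6 and 11 in the knockouts.

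Hair follicle and sebaceous markers (14 genes) summed to 346.0 and 3898 CPM in the controls, against 455.0 and 3990.5 CPM in the knockouts. Scd1, a fatty acid desaturase abundant in sebocytes, was at 141.0 and 3064 CPM in the controls and 255.1 and 3894 CPM in the knockouts, and carried the high sum of knockout 2. Without Scd1 the list summed to 205.0 and 833.6 CPM in the controls, against 199.9 and 96.0 CPM in the knockouts, the same order of libraries as the members' sum. Perp, the basal keratinocyte marker with the highest mean over the 4 libraries, was at 226.6 and 6580 CPM in the controls and 442.5 and 100.5 CPM in the knockouts.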
